A study of Mus musculus with 12 samples.

Results

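The 8 libraries from 23-month-old mouse brain fell on either side of a gap in choroid plexus transcripts, and the 4 poor libraries are compared here with the 4 rich ones. They are 8 of the 12 libraries of the series. The sides were read from 3 genes in these same libraries: Ttr, which encodes the thyroid hormone carrier transthyretin, Kl, which encodes Klotho, and Folr1, a folate receptor. The poor side holds Old 7, Old 9, Old_CP2 11 and Old_CP2 15, and the rich side holds Old 8, Old 10, Old_CP2 12 and Old_CP2 13, so each has 2 vehicle and 2 treated libraries. CPM are counts relative to the library total, scaled by TMM, here over all 12 libraries. A constant was added to CPM before the log, which brings low values closer together. The mean log2 value of the 3 genes then ran from 1.99 to 4.08 on the poor side and from 5.89 to 6.19 on the rich side. Old 7, at 4.08, was the poor library nearest to the gap, and Old_CP2 12, at 5.89, the rich one nearest to it.

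RNA came from a slice across the brain with hippocampus and cortex in it, and the libraries were made from total RNA with TruSeq RNA Library Prep Kit v2, which does not mark the strand. All samples are labelled wild type. Old and Old_CP2 samples share the strain name C57BL/6;SJL-Tg and an age of 23 months. Old animals were given only the vehicle, 0.1% PEG in drinking water, starting at 9 months. Old_CP2 animals were given CP2, an inhibitor of complex I in mitochondria, at a daily 25 mg per kg, likewise in 0.1% PEG and starting at 9 months. The Young mice, shown for reference only, were 3 months old, untreated and labelled C57BL/6. The sample titles begin with NTG (non-transgenic), but the series text names treated and non-treated APP/PS1 mice beside NTG ones, and this conflict could not be settled. No source says that each library is a separate animal, so every p measures the spread between these libraries only. Depth was 78021395 to 94210856 counts in the poor libraries and 70548781 to 99449665 in the rich ones. Markers of the labelled tissue were present throughout: 20 hippocampal genes summed to between 1560 and 1910 CPM, and 22 cortical genes to between 919 and 1160 CPM.

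The choroid plexus is a folded sheet of secretory epithelium over a vascular core that hangs in the ventricles of the brain and makes cerebrospinal fluid. Its epithelium moves water and ions through channels and transporters, is sealed by tight junctions, and secretes carrier proteins and enzymes into the fluid. Ependymal cells with motile cilia line the ventricle walls beside it. The plexus of the lateral and the third ventricles lies next to the hippocampus, the thalamus and the habenula, and the plexus of the fourth ventricle lies between the cerebellum and the hindbrain.

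Otx2, a homeodomain transcription factor of the plexus epithelium, is itself among the 30 choroid plexus genes described here. The 6-letter homeodomain motif TAATCC was therefore searched on both strands in RefSeq promoters (build GRCm38.p6, 300-base windows around each start site), for which 23 of the 30 genes had an entry. It occurred in 3 of their 34 promoters (8.82%), against 2320 of 32851 promoters in all (7.06%). The genes with a match were Abca4, Ace and one start of Otx2 itself. The 250 bases before the start site are shown for Abca4 and Ace, in which capitals mark the match, and for Kl, which has none. They lie at chr3:122044210-122044459, chr11:105967698-105967947 and chr5:150952357-150952606, all on the plus strand. In Abca4 the match reads on the opposite strand and begins 58 bases before the start, and in Ace it begins 27 bases before it.
Abca4: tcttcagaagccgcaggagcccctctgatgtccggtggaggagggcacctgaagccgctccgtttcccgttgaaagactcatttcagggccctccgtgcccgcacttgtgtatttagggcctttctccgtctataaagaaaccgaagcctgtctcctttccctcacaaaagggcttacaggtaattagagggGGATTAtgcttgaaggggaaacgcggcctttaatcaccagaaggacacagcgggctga
Ace: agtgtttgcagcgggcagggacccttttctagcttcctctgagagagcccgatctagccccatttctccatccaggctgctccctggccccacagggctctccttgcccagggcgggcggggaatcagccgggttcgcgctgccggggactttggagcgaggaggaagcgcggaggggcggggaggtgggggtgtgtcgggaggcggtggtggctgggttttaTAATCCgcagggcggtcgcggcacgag
Kl: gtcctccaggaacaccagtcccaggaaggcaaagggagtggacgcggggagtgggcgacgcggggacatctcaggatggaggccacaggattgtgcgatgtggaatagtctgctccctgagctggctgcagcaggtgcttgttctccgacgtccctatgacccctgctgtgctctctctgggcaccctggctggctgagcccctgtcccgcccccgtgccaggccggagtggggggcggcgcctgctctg
Counted per gene, 3 of 23 choroid plexus genes (13%) had a match, against 2199 of 27025 genes in all (8.14%). A match is a stretch of letters, not a binding site.

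Of the 30 choroid plexus genes, all of which passed the filter on low counts, 29 were lower on the poor side and 1 was higher, with a median log2 difference (poor minus rich) of -1.97 against 0.01 over all 23050 genes tested. By position in the deposited table (mm10), Kl lies at 5:150952607-150993809, Folr1 at 7:101858331-101870788 and Ace at 11:105967945-105989964. In 28 of the 30, the 4 poor values lay below the 4 rich values without overlap, where 3.1% of all tested genes did so. Since the sides were chosen on 3 of these genes, the whole set is a description of the split and carries no test. Values below are normalised CPM in the order Old 7, Old 9, Old_CP2 11 and Old_CP2 15 for the poor side, and Old 8, Old 10, Old_CP2 12 and Old_CP2 13 for the rich side. In bulk tissue, fewer cells of a type and less RNA per cell cannot be told apart.

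Among carriers and receptors, Ttr was at 131, 6.84, 5.07 and 40.9 CPM in the poor libraries and at 865, 686, 739 and 685 in the rich ones. The rich side was therefore within a narrow range, whereas the poor side itself was spread widely, with Old 7 and Old_CP2 15 well above the other 2. The mean of the rich side was 16.2 times that of the poor side. Kl was at 15, 9.97, 7.91 and 9.62 CPM against 43.0, 41.0, 36.3 and 39.8, a ratio of 3.77. Folr1 was at 1.3, 0.224, 0.166 and 0.774 CPM against 9.31, 7.08, 6.52 and 8.03, a ratio of 12.5. In all 3 genes the poor libraries kept a remainder, and Old 7 had the highest. Prlr, the prolactin receptor, was at 5.82 to 8.77 CPM on the poor side and at 16.0 to 50.2 on the rich side, where Old_CP2 13 alone was above 21.2. Steap1, of a family of metalloreductases, reached 0.335 CPM at most on the poor side and at least 1.24 on the rich side. Stra6, the cell surface receptor for retinol-binding protein, ran the other way, at 8.52, 8.58, 12.7 and 10.1 CPM in the poor libraries and at 6.43, 5.69, 8.75 and 6.95 in the rich ones, and its groups overlapped.

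Channels and transporters of the epithelium showed the same split at lower levels. Aqp1, the water channel of the apical membrane, was at 0.970, 0.299, 0.312 and 0.412 CPM in the poor libraries and at 4.30, 4.51, 4.82 and 3.69 in the rich ones, a ratio of 8.69. Kcne2, a potassium channel subunit, was at 0.970, 0.0996, 0.0623 and 0.287 CPM against 4.21, 4.09, 3.36 and 3.62, a ratio of 10.8. Both genes were close to 0 in Old 9 and Old_CP2 11 and held a clear remainder in Old 7. Slc4a5, a sodium bicarbonate cotransporter, was at 0.291 to 2.58 CPM against 6.51 to 7.37. Kcnj13, an inward rectifier potassium channel, was lower with a log2 difference of -1.84, and Clic6, a chloride intracellular channel protein, with one of -2.25. Oca2, a membrane transporter of pigment cells, was at 0.0558 to 0.145 CPM against 0.605 to 1.95, a log2 difference of -3.59, and the membrane protein Tmem72 had one of -2.87. Smaller differences were found for Abca4, a retinoid transporter, at -1.29, Slc16a8, a lactate transporter, at -1.24, and the calcium channel Trpv4 at -1.12 on the log2 scale. Slc13a4, a sulfate transporter, was the other gene with overlapping groups, at 11.5 to 15.5 CPM against 13.8 to 19.3.

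Secreted proteins and enzymes differed from each other in the size of the difference. F5, coagulation factor V, was at 4.13, 0.971, 0.634 and 1.55 CPM in the poor libraries and at 16.8, 16.2, 14.0 and 13.6 in the rich ones, a ratio of 8.33. Enpp2, autotaxin, which makes lysophosphatidic acid, was at 374, 240, 206 and 280 CPM against 817, 722, 602 and 587, a ratio of 2.48. Ace, angiotensin-converting enzyme, was at 21.6, 21.1, 20.9 and 22.9 CPM against 38.3, 39.8, 43.0 and 39.7, a ratio of 1.86. The poor values of Ace were almost level across the 4 libraries, unlike those of Ttr, F5 and Aqp1. The other 7 members of this group were lower with log2 differences from -0.85 in Car12, a carbonic anhydrase, to -2.47 in Calml4. Of the junction protein and the transcription factors, Cldn2, a claudin of leaky tight junctions, was at 0.249 to 1.35 CPM against 4.21 to 4.95, while Msx1 and Otx2 differed by -0.97 and -0.57 on the log2 scale.

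**Figure D1:**
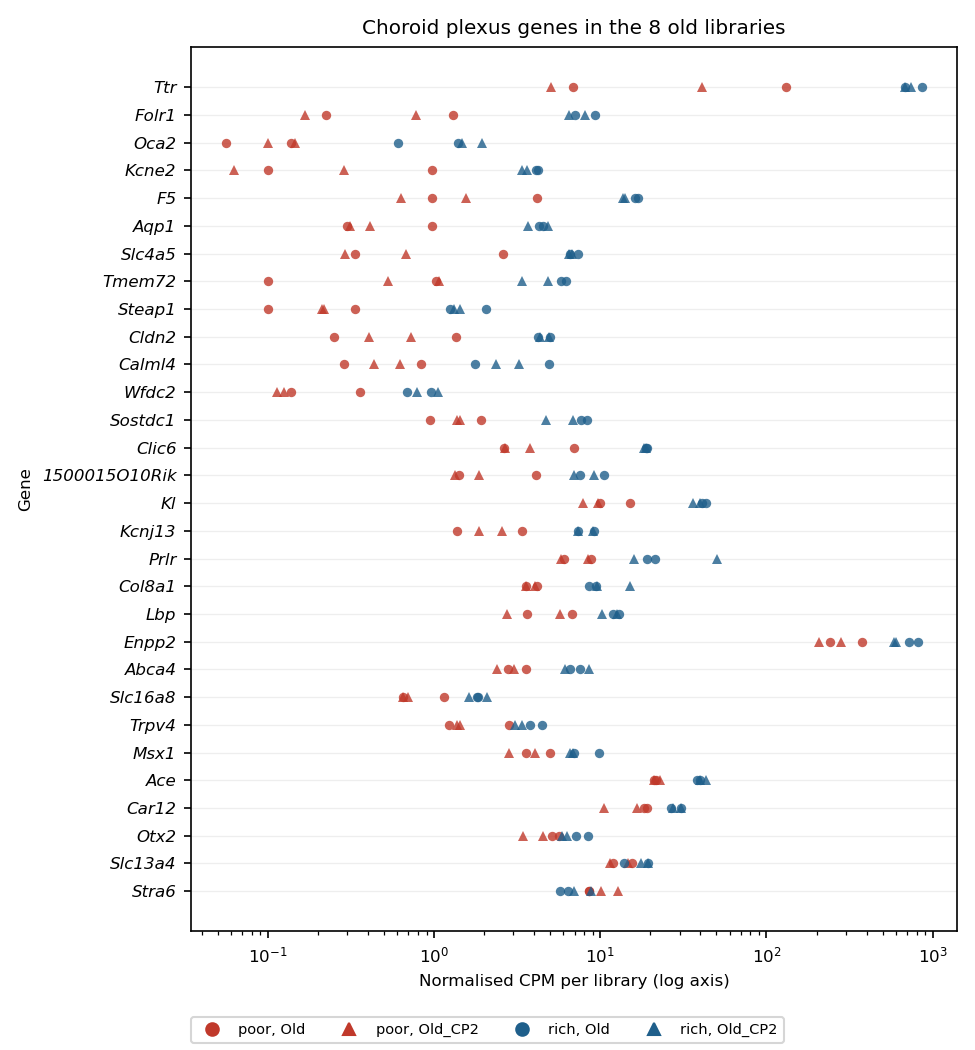
Normalised CPM (log axis) of the 30 choroid plexus genes, 1 point per old library, with poor libraries in red and rich ones in blue, circles for Old and triangles for Old_CP2. The rich points cluster tightly for most genes, such as Ttr at 685 to 865 CPM, while the poor points spread, from 5.07 to 131 CPM for Ttr. Only Stra6 and Slc13a4 have overlapping groups.

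Per length, in the RPKM values the authors deposited, Ttr stayed the most abundant of the 3 marker genes on both sides. Its median RPKM was 493 on the rich side and 16.5 on the poor side, against 6.57 and 1.58 for Kl and 2.77 and 0.183 for Folr1. The Young libraries lay higher still, at a median RPKM of 941 for Ttr, 9.49 for Kl and 5.81 for Folr1. With all 12 libraries scaled together, 28 of the 30 genes had every Young value above every poor value, and 12 of the 30 had every Young value above every rich value. Age, strain label, treatment with vehicle and the amount of choroid plexus in the slice cannot be told apart in that setting. Ttr was at 1060 to 1760 CPM in the 4 Young libraries, against at most 863 on the rich side in that scaling.

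Across all genes, edgeR's quasi-likelihood test with treatment as a term called 23 of 23050 genes between the sides (0.0998%) at an adjusted p under 0.05 after Benjamini-Hochberg adjustment, all 23 lower in the poor libraries. At an unadjusted p under 0.05, 1264 genes were lower (5.48%) and 1157 were higher (5.02%). Of the 23, 13 belonged to the choroid plexus list, Kl and Folr1 of the split rule among them, and 10 did not. Nothing is read from those 13 calls. The p-values of other genes say which of them went with a split that was read from these libraries, and are no independent evidence for it. Without Old 7 and Old_CP2 15, which held cerebellar and hindbrain transcripts, 74 genes were called, 20 of them among the 23. Leaving out single libraries moved the count from 23 to 45 without Old 7 and 35 without Old 9, to 7 without Old 8, 10 without Old 10, 3 without Old_CP2 11, 4 without Old_CP2 13, and 12 without Old_CP2 12 or Old_CP2 15. DESeq2 called 332 genes, 263 lower and 69 higher.

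The 8 called genes outside the choroid plexus and ependymal lists with a mean of at least 1 CPM were all lower on the poor side, and their groups did not overlap. Ttc21a (9:119937606-119967793), a tetratricopeptide repeat gene, was at 1.48, 1.10, 1.36 and 2.10 CPM in the poor libraries and at 5.38, 4.22, 3.66 and 5.61 in the rich ones (log2 difference -1.65 ± 0.21 SE, n = 4 and 4, edgeR adjusted p = 0.0345). Col8a2 (4:126286793-126314330), a collagen VIII chain, was at 5.14, 2.78, 3.13 and 4.02 CPM against 13.2, 9.70, 8.98 and 10.5 (-1.49 ± 0.19 SE, edgeR adjusted p = 0.0345). Its partner chain Col8a1, a member of the choroid plexus list, was at 3.56 to 4.17 CPM against 8.55 to 15.1. Rbm47, an RNA-binding protein, averaged 0.629 ± 0.207 CPM against 1.79 ± 0.243 (SD, n = 4 and 4).

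Mfrp, a membrane frizzled-related protein, averaged 14.1 ± 2.52 CPM on the poor side and 24.6 ± 0.864 on the rich side (SD, n = 4 and 4, edgeR adjusted p = 0.0423). It overlaps C1qtnf5 at the end of the gene on chromosome 9, so reads in the overlap could belong to either. Slc37a2, a sugar phosphate carrier, averaged 2.90 against 4.67 CPM. Pcolce (5:137605103-137613784), an enhancer of procollagen processing, was at 5.14, 4.97, 5.01 and 5.01 CPM against 7.59, 7.40, 7.15 and 7.81, a small difference (-0.57 ± 0.07 SE on the log2 scale, edgeR adjusted p = 0.0345) with little spread on either side. Mb21d2 was at 27.5, 30.7, 29.9 and 31.2 CPM against 36.9, 38.1, 39.7 and 41.6 (-0.39 ± 0.05 SE, edgeR adjusted p = 0.0378). These 8 genes kept their direction in every one of the 16 alternative settings, but each was called in only 7 to 12 of them, and in 1 to 4 of the 8 fits that leave out a library. None of the 8 was called without Old 8, Old 10, Old_CP2 11 or Old_CP2 13. The 2 other called genes outside the list were Tmprss11a, under 1 CPM on average, and Gm11651, a gene model that overlaps Ace on chromosome 11 and cannot be told from it without strand.

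No gene was called higher in the poor libraries by edgeR, where 1157 were higher at an unadjusted p under 0.05 and DESeq2 called 69. Genes near the threshold in that direction had small differences. Syt2, a synaptic vesicle calcium sensor, was at 207, 154, 183 and 180 CPM in the poor libraries and at 131, 120, 135 and 110 in the rich ones (0.54 ± 0.09 SE on the log2 scale, edgeR adjusted p = 0.0907). Ank1, an ankyrin, had 0.39 ± 0.07 (edgeR adjusted p = 0.0931), Vamp1, a vesicle fusion protein, 0.39 ± 0.08 (edgeR adjusted p = 0.156), and Des, the intermediate filament desmin of muscle cells, 0.81 ± 0.15 (edgeR adjusted p = 0.1). Tpm2, Lingo4, Barhl1, Vwf, Ndufaf2 and Cd14 were the other genes named by the same rule, with log2 differences of 0.31 to 0.60 and adjusted p from 0.0989 to 0.186 in edgeR. In the other direction, Adora2a, an adenosine receptor of striatal neurons, was just short of the threshold at 1.29 to 1.87 CPM against 3.22 to 5.45 (edgeR adjusted p = 0.0515), as was Zfp185 (edgeR adjusted p = 0.0536).

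The ependymal list moved in the same direction as the choroid plexus. It and the lists below were chosen with earlier results of these data known, so their counts are descriptions. Of 22 genes of ependymal cells and motile cilia, 21 had a negative difference and 17 were lower at an unadjusted p under 0.05 (background 5.48%), although edgeR called none after adjustment and DESeq2 called 6. The median log2 difference was -0.77. The groups did not overlap for 7 of the 22, where 3.1% of all tested genes were lower in this way. Over the whole list, the mean log2 CPM did not separate the sides. It was 1.05 in Old_CP2 15, a poor library, and 1.04 in Old_CP2 12, a rich one. Foxj1, the master regulator of motile cilia, was at 10.3, 8.31, 9.03 and 9.79 CPM in the poor libraries and at 16.2, 13.3, 11.5 and 12.9 in the rich ones (edgeR adjusted p = 0.158). Its 2 groups were separate but close. Rsph1, a radial spoke protein, was at 1.76 to 2.44 CPM against 3.20 to 3.97 (edgeR adjusted p = 0.0701). Dnah12, a dynein heavy chain, was at 0.797 to 0.904 CPM in 3 poor libraries and at 2.19 in Old_CP2 15, just under the lowest rich value of 2.23. Without Old 7 and Old_CP2 15, 19 of the 22 were lower at that p and 3 were called. Of all 23803 genes in that fit, 4.94% were lower at that p and 71 were called lower.

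Genes of the thalamus and habenula, which border the third ventricle, were also lower in the poor libraries. All 16 had a negative difference, 12 were lower at an unadjusted p under 0.05 (background 5.48%), and 10 had groups that did not overlap (3.1% of all tested genes lower in this way). Their median log2 difference was -0.52, and their part in the choroid plexus result was not tested. Ramp3 (11:6658521-6677475), a receptor activity-modifying protein, was at 9.35, 10.9, 9.19 and 11.3 CPM in the poor libraries and at 18.4, 24.4, 17.8 and 25.2 in the rich ones, and was the 1 gene of the list called (-1.08 ± 0.13 SE on the log2 scale, n = 4 and 4, edgeR adjusted p = 0.0345). Prkcd, protein kinase C delta of thalamic relay neurons, was at 49.1, 39.0, 19.7 and 48.8 CPM against 60.3, 117, 95.0 and 114 (edgeR adjusted p = 0.203). Old 8 had the lowest rich value of Prkcd and Old_CP2 11 the lowest poor one.

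Rgs16, a regulator of G protein signalling, was at 13.4, 18.3, 15.4 and 16.6 CPM in the poor libraries and at 21.3, 30.8, 27.0 and 34.1 in the rich ones (edgeR adjusted p = 0.0871). Ptpn3, a tyrosine phosphatase, was at 49.5 to 66.2 CPM against 76.8 to 91.9, and Plekhg1 at 23.2 to 37.9 against 47.0 to 69.5. Gpr151, an orphan receptor of habenular neurons, was at 0.712 to 0.945 CPM in the poor libraries and at 3.21, 4.64 and 6.60 in 3 rich ones, but at 0.969 in Old_CP2 12. Old 10 and Old_CP2 13 were the highest of the rich side for Ramp3, Rgs16 and Gpr151. Tcf7l2 and Slc17a6, which are expressed across the thalamus, had overlapping groups and differences of -0.23 and -0.16. Zic1 overlapped as well, and was highest in Old 7 at 101 CPM. Without Old 7 and Old_CP2 15, again 16 of 16 were negative, 12 were lower at that p and 1 was called. In that fit 4.94% of all 23803 genes were lower at that p and 71 were called lower.

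**Figure D2:**
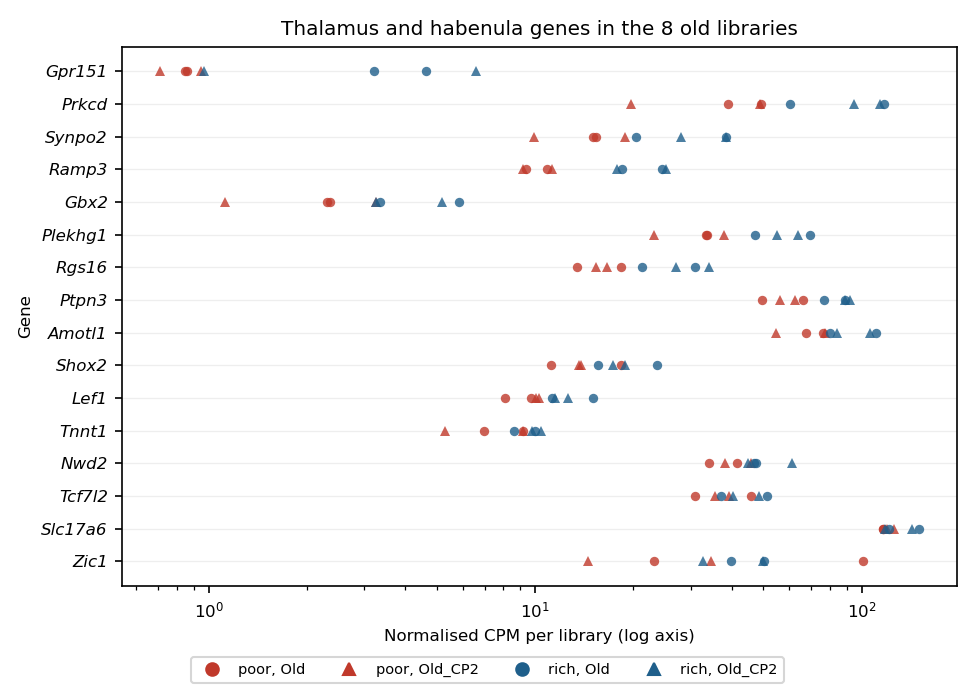
Normalised CPM (log axis) of the 16 thalamus and habenula genes in the 8 old libraries, with colours for the side and symbols for the treatment. Red (poor) points lie left of blue (rich) points without overlap in 10 of the 16 genes, such as Ramp3 at 9.19 to 11.3 against 17.8 to 25.2 CPM, and Zic1 has its highest value in a poor library, Old 7.

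Other regions next to the ventricles differed less evenly. Of 19 hypothalamic genes tested, 18 had a negative difference and 8 were lower at an unadjusted p under 0.05 (background 5.48%), with a median of -1.52, but the rich side was divided. Trh, thyrotropin-releasing hormone, was at 0.996 to 2.0 CPM in the poor libraries and at 1.71, 6.10, 7.27 and 8.87 in the rich ones. Nkx2-1, a transcription factor of the ventral forebrain, was at 0.275 to 0.379 CPM against 0.458, 1.70, 0.816 and 2.57. Pmch, the precursor of melanin-concentrating hormone, was at 14.5 CPM in Old 10 and 39.0 in Old_CP2 13, but also at 11.3 in Old 7, and at 0.332 to 2.83 in the other 5. Summed over the list, Old 10 had 156 CPM and Old_CP2 13 had 194, against 52.7 to 85.8 in the other 6, and the median was -0.63 without Old_CP2 13. Of 20 striatal genes, 15 were negative and 9 were lower at that p, with a median of -0.20.

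Hindbrain and cerebellar genes had higher values on the poor side, and the highest were in Old 7 and Old_CP2 15. All 15 hindbrain genes had a positive difference, 6 at an unadjusted p under 0.05 (background 5.02%), with a median of 2.37, and all 14 cerebellar genes had one, 7 at that p, with a median of 1.02. Without Old 7 and Old_CP2 15 the medians were 0.41, over the 12 hindbrain genes still tested, and -0.03. Positive then were 8 of those 12 and 6 of the 14 cerebellar genes. The hindbrain genes left out of the 12 passed the filter on low counts only with Old 7 and Old_CP2 15. The count of 15 positive genes was therefore partly set in advance. Hoxb2 averaged 0.247 CPM on the poor side and 0.0107 on the rich side, with all 12 libraries scaled together. The median of 2.37 includes such genes near the floor. With all old libraries in the fit, edgeR called none of the hindbrain and cerebellar genes, and DESeq2 called 1 hindbrain and 2 cerebellar ones. Gabra6, a GABA receptor subunit of cerebellar granule cells, was at 79.6, 0.137, 0.114 and 10.8 CPM in the poor libraries and at 0.0212 to 0.177 in the rich ones. Cbln3, a cerebellin of the same cells, was at 85.9, 0.797, 0.592 and 8.78 CPM against 0.633 to 0.764. Old 7 thus held the most cerebellar transcript and Old_CP2 15 held less, while the list summed to 72.5 CPM in Old 9 and 69.7 in Old_CP2 11, against 73.4 to 81.3 in the rich libraries.

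Slc6a5, the glycine transporter of hindbrain inhibitory neurons, was at 33.5, 3.37, 4.38 and 14.9 CPM in the poor libraries and at 1.34, 2.58, 3.08 and 0.953 in the rich ones. Tph2, the enzyme of serotonin synthesis in the raphe nuclei, was at 50.0 CPM in Old_CP2 15 and at 2.18 to 10.3 in the other 7. Slc6a4, the serotonin transporter, was at 28.3 CPM in Old_CP2 15 and at 1.14 to 6.62 elsewhere. Old_CP2 15 was also the highest for the dopaminergic genes Slc6a3 at 64.9 CPM, against 21.6 to 42.9 in the other 7, and Th at 33.9, against 11.3 to 23.8. Midbrain genes had a median of 0.15 with all 8 libraries and of -0.11 without Old 7 and Old_CP2 15. With all 8, 5 of 19 were higher at an unadjusted p under 0.05 (background 5.02%) and none was lower. Without those 2 libraries, 7 were higher and 7 lower at that p, where 3.36% and 4.94% of all genes were. The same 2 libraries had the most Ttr among the poor ones, and whether this and the hindbrain signal belong together was not tested.

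**Figure D3:**
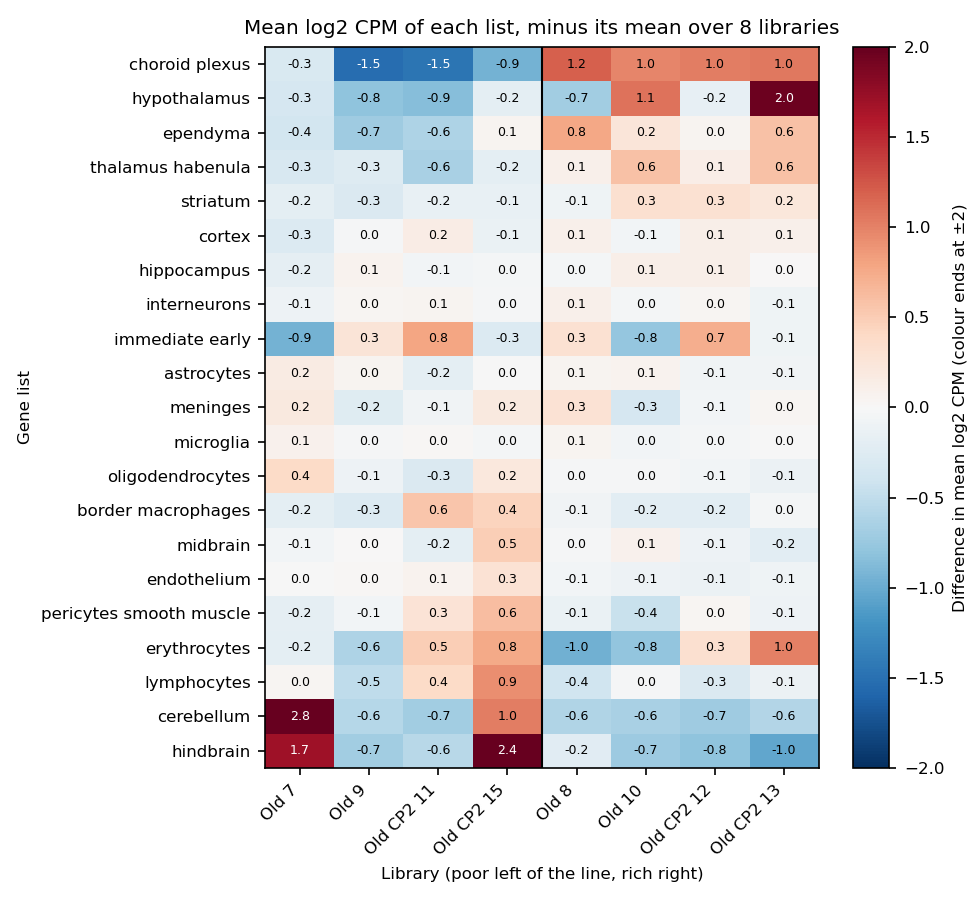
Mean log2 CPM of each of the 21 gene lists in each old library, minus the mean of that list over the 8 libraries, with poor libraries left of the line and rich ones right (colour ends at ±2). Choroid plexus and thalamus rows are below 0 in all 4 poor libraries and above 0 in all 4 rich ones, while the cerebellum and hindbrain rows are high in Old 7 and Old_CP2 15 only.

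Cortical and hippocampal genes differed little between the sides. Of 22 cortical genes, 2 were lower and 1 was higher at an unadjusted p under 0.05 (backgrounds 5.48% and 5.02%), with a median of -0.15, and of 20 hippocampal genes, 3 were lower and none higher, with a median of -0.11. Most differences were negative, 19 of 22 and 13 of 20, against 10952 of all 23050 genes, and without Old 7 and Old_CP2 15 they were 10 of 22 and 13 of 20. Rorb, a layer 4 transcription factor, was at 32.0, 40.4, 35.5 and 31.7 CPM in the poor libraries and at 45.7, 42.0, 44.0 and 45.5 in the rich ones (edgeR adjusted p = 0.207). Bok, a BCL2-family gene, was at 22.6 to 31.0 CPM against 32.8 to 37.3 (edgeR adjusted p = 0.304). Among 12 interneuron genes, Pvalb, parvalbumin, was the 1 gene at that p, and its 190 CPM in Old 7 and 109 in Old_CP2 15 were the highest values. The medians of the astrocyte, microglial, oligodendrocyte and meningeal lists lay between -0.01 and 0.10. Of 20 oligodendrocyte genes, 19 were positive, 1 of them at that p. Without Old 7 and Old_CP2 15, 19 of the 20 were negative and 8 were lower at that p, against 4.94% of all genes. The oligodendrocyte median was then -0.154, and the astrocyte, microglial and meningeal medians lay between -0.132 and 0.035.

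Genes of vessel cells mostly had higher values on the poor side, by little. All 14 endothelial genes had a positive difference, 5 at an unadjusted p under 0.05 (background 5.02%), with a median of 0.18, and 14 of 15 genes of pericytes and smooth muscle had one, 6 at that p, with a median of 0.26. Vwf, von Willebrand factor, was at 22.7, 27.7, 25.1 and 29.5 CPM in the poor libraries and at 15.8, 18.7, 21.3 and 22.5 in the rich ones, which left the groups only just apart. Tagln, a smooth muscle protein, was at 6.66, 7.14, 9.78 and 16.5 CPM against 5.51, 4.02, 6.78 and 5.05. Des was at 1.73 to 2.65 CPM against 0.944 to 1.45. Old_CP2 15 had the highest value of all 3. EdgeR called no gene of either list, and DESeq2 called 1 endothelial gene and 4 of pericytes and smooth muscle. The groups did not overlap for 2 endothelial genes and 1 of pericytes and smooth muscle, where 2.39% of all genes were higher in this way. Without Old 7 and Old_CP2 15, 6 endothelial and 6 pericyte or smooth muscle genes were higher at that p, against 3.36% of all genes. The medians were 0.04 and 0.07 under vehicle and 0.30 and 0.42 under CP2.

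A few immune genes, chosen after their values were seen, were highest in Old_CP2 11 or Old_CP2 15, while other members of their lists, such as Mrc1 and Cd163, were highest elsewhere. H2-Aa, a class II antigen presentation gene, was at 1.38, 3.06, 15.4 and 6.46 CPM in the poor libraries and at 1.99 to 2.60 in the rich ones. Cd74, the class II invariant chain, was at 42.5 CPM in Old_CP2 11 and 17.8 in Old_CP2 15, and at 5.33 to 10.0 in the other 6. Ccl5, a chemokine of T cells and natural killer cells, was at 2.72 CPM in Old_CP2 15 and at 0.137 to 0.499 elsewhere. Among 13 genes of border macrophages 1, and among 14 lymphocyte genes 1, was higher at an unadjusted p under 0.05 (background 5.02%). Hbb-bs, a beta globin gene of red blood cells, was at 97.3 to 168 CPM in the 4 Old_CP2 libraries and at 32.6 to 62.5 in the 4 Old ones. Immediate-early genes, whose levels follow neuronal activity, showed no gene at that p, and Egr1 ran from 74.6 to 270 CPM with no order by side.

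The split could be looked at within each treatment, where the pairs of 2 poor and 2 rich libraries share no library, although they share the rule that made them and a single estimate of the spread. The choroid plexus median was -1.73 under vehicle and -2.17 under CP2, the ependymal median -0.89 and -0.66, and the thalamic median -0.54 and -0.68. In both treatments the difference was negative for 29 of 30 choroid plexus, 21 of 22 ependymal and 15 of 16 thalamic genes, and positive for 15 of 15 hindbrain genes, while 7099 of the 23050 tested genes were negative in both and 7553 positive in both. For hindbrain genes, each poor pair held a library high in their transcripts, Old 7 under vehicle and Old_CP2 15 under CP2. Without Old 7 and Old_CP2 15, 8 of the 12 hindbrain genes still tested were positive and 4 negative. The others of the 15 passed the filter on low counts only with those 2 libraries, so nothing is read from 15 of 15. Ramp3 differed by -1.08 under vehicle and -1.07 under CP2, and Pcolce by -0.57 and -0.58. The hypothalamic median was -0.74 under vehicle and -1.71 under CP2.

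**Figure D4:**
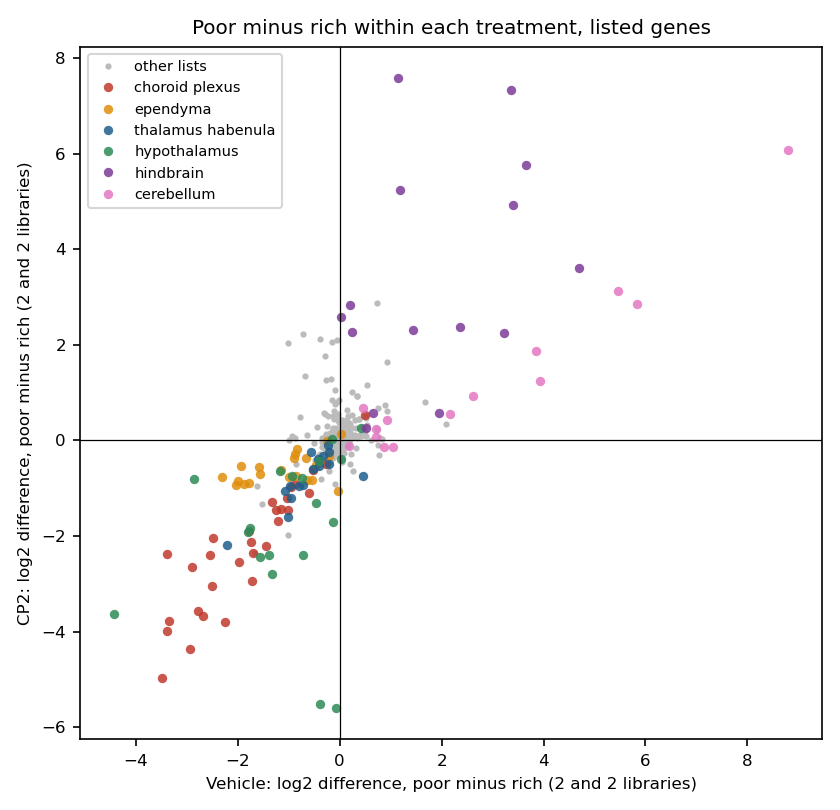
Log2 difference between poor and rich under vehicle (horizontal axis) and under CP2 (vertical axis) for the listed genes, 1 point per gene, from 2 and 2 libraries each. Choroid plexus, ependymal and thalamic genes lie mostly in the lower left, with medians of -1.73 and -2.17 for the choroid plexus, and hindbrain genes lie in the upper right. Each poor pair holds a library high in hindbrain transcripts, Old 7 under vehicle and Old_CP2 15 under CP2.

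Calls within 1 treatment came mostly from genes that did not follow the split in the other. Within vehicle 12 genes were called by edgeR (0.0521%), 5 higher (0.0217%) and 7 lower (0.0304%), 2 of them the choroid plexus genes Ace and Kl. Kl helped to define the sides, so nothing is read from these 2 calls in either treatment. Of the other 10 only Gm11478 had the same direction under CP2. Within CP2 8 genes were called (0.0347%), 5 higher (0.0217%) and 3 lower (0.013%), Ace and Kl included, and of the other 6 only Gm8615 had the same direction under vehicle. These counts rest on 2 libraries against 2 and moved with single libraries: within vehicle to 41 without Old 9, 32 without Old 7 and 6 without Old 10, and within CP2 to 30 without Old 7 or Old 9 and 2 without Old_CP2 13.

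The difference between the treatments in the poor-rich contrast was itself tested, and 9 genes were called (0.039%), 5 with a more positive difference under CP2 (0.0217%) and 4 with a more negative one (0.0174%). The count was 16 without Old 9, 14 without Old_CP2 11 and 6 without Old 8. None belonged to the choroid plexus, ependymal or brain region lists. The test sets Old 8, Old 10, Old_CP2 11 and Old_CP2 15 against the other 4. A dependence on treatment therefore cannot be told apart from an unlabelled trait divided in the same way. In 5 of the 9 genes, the first-named 4 libraries were alike and unlike the other 4. Gm13394, a gene model on chromosome 2, was at 122, 63.3, 65.8 and 63.6 CPM in those 4 and at 0.112 to 0.422 in Old 7, Old 9, Old_CP2 12 and Old_CP2 13. Gm15772 was at 44.5 to 60.1 CPM in those 4 and at 6.59 to 9.40 in the others, and Gm7293 and Gm2574 were divided in the same way. Igkc, the constant region of the immunoglobulin kappa chain, was at 2.01, 2.42, 4.75 and 4.16 CPM in those 4 and at 0.374 to 0.845 in the others.

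Wdfy1, an endosomal adaptor protein on chromosome 1, showed the opposite pattern, at 32.0, 38.2, 36.3 and 33.8 CPM in those 4 libraries and at 50.9 to 55.7 in the others (edgeR adjusted p = 0.0281 for the interaction). It lost the call in 6 of the 8 fits that leave out a library, all but those without Old 9 and Old 10. The remaining 3 genes set vehicle libraries apart. Gm11478 was at 20.9 and 17.9 CPM in Old 7 and Old 9 and at 0.996 to 1.68 in the other 6, and Mir692-3 was at 7.53 and 7.00 against 0.499 to 0.694. Gm10654 had 0 counts in Old 8 and 1 in Old 10, against 56 to 133 in the other 6. With the Young libraries in the fit, 4 of the 9 genes were called, and Gm13394, Gm15772, Gm7293, Gm2574 and Wdfy1 were not.

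**Figure D5:**
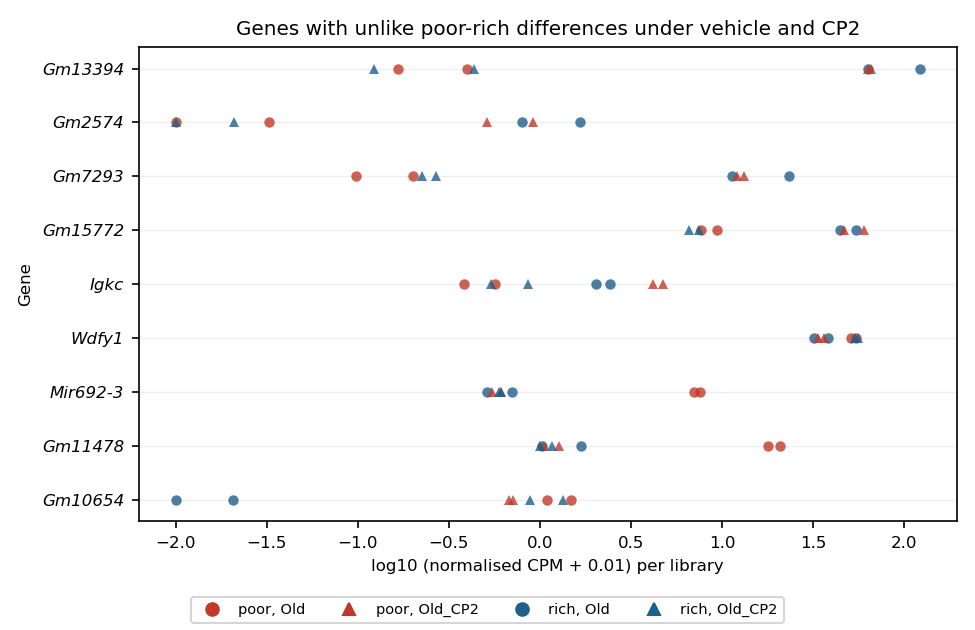
Log10 of normalised CPM + 0.01 per old library for the 9 genes called in the test of the interaction. A dependence on treatment cannot be told apart from an unlabelled trait that divides the libraries in the same way. For Gm13394 the rich Old and poor Old_CP2 points lie together, at 63.3 to 122 CPM, and the other 4 lie at 0.112 to 0.422 CPM.

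With the split as a term, 13 genes were called between CP2 and vehicle (0.0564%), 9 higher under CP2 (0.039%) and 4 lower (0.0174%), and without that term also 13, of which 12 were the same. Cfap54, a cilia and flagella protein, was the 1 gene of the 13 lost without the term. It was at 6.91 to 11.9 CPM in the Old libraries and at 15 to 18.2 in the Old_CP2 ones (0.94 ± 0.11 SE on the log2 scale, edgeR adjusted p = 0.0192). Within each treatment its rich libraries were the higher ones. The call of Cfap54 held in only 3 of the 8 fits that leave out a library. None of the 30 choroid plexus genes was called for treatment by edgeR or DESeq2, and their median difference was -0.25. At an unadjusted p under 0.05, 1 was higher and 3 were lower, where 3.17% of all tested genes were higher and 3.52% lower. The split term in this fit was read from Ttr, Kl and Folr1 of this list, in the same libraries. These choroid plexus counts therefore cannot decide whether CP2 changed these genes, and nothing is read from them. Frem2, an extracellular matrix protein, was at 12.4 to 14.7 CPM in the Old libraries and at 3.85 to 4.67 in the Old_CP2 ones whichever the side (-1.66 ± 0.09 SE, edgeR adjusted p = 0.00017). Rgs5, a pericyte gene, was at 55.6 to 62.6 against 75.2 to 92.7 CPM, and Lrat, an enzyme of retinol storage, at 0.295 to 0.424 against 1.20 to 1.45.

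The gene models 1500004A13Rik and 5830417I10Rik, which overlap each other on chromosome 3, were both lower under CP2, the former at 79.9 to 85 against 41.1 to 48.6 CPM. Gm12913 was the fourth gene called lower. Hba-a2, an alpha globin gene with a near-identical copy, was at 7.89 to 15.6 CPM in the Old libraries and at 36.6 to 81.1 in the Old_CP2 ones, and lost the call without any 1 of the 4 Old libraries. Gm6356 had 0 counts in each Old library and 255 to 353 in each Old_CP2 library, and Gm14513 had 2 to 9 against 285 to 319. Gm9855, Gm14131 and Prss27 were the other genes called higher. Of the 8 fits that leave out a library, Rgs5, 5830417I10Rik and Prss27 kept the call in 3, and Gm12913 in 2. Frem2, Lrat, 1500004A13Rik, Gm6356, Gm14513, Gm9855 and Gm14131 kept it in all 8. Without Old 7 and Old_CP2 15, 75 genes were called, among them 12 of the 13, and without Old_CP2 15 alone 35. Without Old 7 alone the count was 8.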

How the data were processed

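The data are RNA-seq of brain slices. Per the submitters' processing notes, the tools included TopHat and featureCounts of Subread, with build mm10; the sources used here give neither versions nor the annotation. The authors deposited 1 table of 43346 genes with a raw count and an RPKM value per library, per the file headers. RPKM served only to set levels of different genes side by side. From the counts of the 8 old libraries, filterByExpr kept 23050 genes, TMM gave the scaling, and edgeR 4.0.16 (R 4.3.3) fitted treatment plus side, or the 4 combinations of both, with quasi-likelihood tests (two-sided) and Benjamini-Hochberg adjustment over all genes at 0.05. The procedure was tested on simulated data. Members, sides and the 21 lists (359 of 362 genes tested) were chosen with earlier results of these data known. Genes outside the choroid plexus and ependymal lists were named if called, at a mean of 1 CPM or more and without overlap. They also had to be alike in direction in both treatments and not an unnamed gene model. The next smallest p filled up to 10. Genes of lists were also named by smallest p, and further ones, such as Th, Slc6a3, Egr1 and Hbb-bs, after their values were seen. No 2 old libraries were near-copies (chi-square per gene at least 14.7). The labels give no batch. DESeq2 1.42.0, other scaling, filters and terms, and left-out libraries were alternatives. One result is not reported here.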

Additional observations from a re-analysis of the deposited data

Results flagged for a closer look

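Among the mean levels of gene lists and named genes, 82 groups of 4 libraries were examined for a library far from the other 3 (Dixon's test at the 95% level), and 4 had one, where chance gives about 1 in 20. In the Old group, Old 7 had a mean log2 CPM of 4.62 over the cerebellar genes, against 1.20 to 1.27 in the other 3. In the Old_CP2 group, Old_CP2 15 had 2.86 over the cerebellar genes, against 1.13 to 1.26, 0.78 over the hindbrain genes, against -2.62 to -2.14, and 2.42 over the midbrain genes, against 1.72 to 1.82. Both libraries are on the poor side.

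The poor-rich difference under CP2 minus that under vehicle passed edgeR's test of the interaction for 9 genes. On the log2 scale it was 16.37 for Gm13394, 13.24 for Gm2574, 12.66 for Gm7293, 5.46 for Gm15772 and 4.94 for Igkc, and -1.22 for Wdfy1, -3.67 for Mir692-3, -3.77 for Gm11478 and -8.10 for Gm10654. Fitted values for Gm13394, Gm2574, Gm7293 and Gm10654 rest on libraries with few or no counts and depend on the prior count. The cause of these patterns was not tested.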

How the results depend on the processing

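No gene followed through the alternative runs changed direction, but some list medians did, as given below. The number of genes called between poor and rich, 23, was 332 with DESeq2, 310 with no filter on low counts, 14 with a mean of at least 1 CPM, 69 with all 12 libraries in the fit, 60 with the marker level in place of the split, 74 without Old 7 and Old_CP2 15 (a setting chosen after seeing the data), and 3 to 45 without 1 library. Within vehicle, 12 became 149 with DESeq2, 356 with no filter, 7 when genes averaged 1 CPM or more, and 6 to 41 without 1 library. Within CP2, 8 became 104 with DESeq2, 241 with no filter and 2 to 30 without 1 library. For the interaction, 9 became 45 with DESeq2, 96 with no filter, 4 with all 12 libraries, 14 without Old 7 and Old_CP2 15 and 6 to 16 without 1 library. For CP2 against vehicle, 13 became 140 with DESeq2, 109 with no filter, 8 with all 12 libraries, 75 without Old 7 and Old_CP2 15 and 8 to 35 without 1 library. The cause was not tested. RLE scaling and TMM without the choroid plexus and ependymal lists kept all 5 counts within 1.5 times. Over the alternatives, list medians ranged from -2.41 to -1.84 for the choroid plexus, -1.12 to -0.64 for ependyma and -0.65 to -0.46 for the thalamus, and changed sign for cerebellum, cortex, oligodendrocytes, erythrocytes, interneurons, midbrain, border macrophages, astrocytes, meninges and immediate-early genes in at least 1. No paired analysis was possible because the groups share no replicate number. Comparisons within a treatment rest on 2 libraries against 2.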
